A study of Mus musculus with 12 samples.

Results

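Tm1N3 is a mouse melanoma line that the labels call galectin-3 expressing, and the comparison described here asks what the genotype of the host changed in tumours grown from it. It sets 3 arrays of tumours from galectin-3 knockout mice (Gal3 -/-) against 3 arrays of tumours from wild-type mice, 6 of the 12 arrays in the series, chosen by the line and genotype that the labels give. The other 6 arrays hold tumours of Tm1G3, a line the labels call galectin-3 silenced, in the same kinds of host. The design text describes a melanoma line with a silenced galectin-3 gene into which a plasmid coding for galectin-3 was placed, and it describes both kinds of host as syngeneic. The tumour cells of all 6 arrays therefore carry a source of galectin-3, and the knockout hosts lack the gene only in their own cells. Whether the line is 1 clone, what promoter drives the plasmid, the age of the mice and whether RNA was pooled are not given in the sources used here. The title numbers of the arrays are 7, 11 and 23 in knockout hosts and 37, 40 and 52 in wild-type hosts; what they count is not stated, and host and title number cannot be told apart.

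Galectin-3 is a lectin that binds beta-galactoside sugars on glycoproteins and can crosslink them at the cell surface and in the matrix. It is made in quantity by macrophages, among other cells, and it is also found inside cells. Poly-N-acetyllactosamine chains on branched N-glycans are among its preferred ligands, and heavily glycosylated lysosomal membrane proteins such as LAMP1 and LAMP2 are well-known carriers of those chains. The array measured 1246 probe sets, many of them for lectins, glycosyltransferases, chemokines and their receptors, as log2 expression values. A single mouse gene symbol was matched to 963 of them, covering 909 genes.

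Lgals3, the gene deleted in the knockout hosts, was detected in both hosts, at overlapping levels. Its log2 levels were 9.35, 9.69 and 10.55 in knockout hosts and 9.80, 9.72 and 10.39 in wild-type hosts. The ranges overlapped, and the highest value in each host was on the array numbered 3. The difference, knockout minus wild type, was -0.11 ± 0.33 (SE), with a 95% interval from -0.84 to 0.62, or from 0.561 to 1.53 times the wild-type level. A two-sided exact permutation test gave p = 0.8, where the smallest p that 3 against 3 arrays allow is 0.1. The sign turned without knockout array 1 (0.15) and without wild-type array 3 (0.10). The probe set carries a suffix for sequence shared with other transcripts, and the part of the gene it reads relative to the deletion is not known here, so it does not check the host labels. Tumour RNA mixes tumour cells and host cells, and in these bulk samples fewer cells of a type and less RNA per cell cannot be told apart.

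Of the other members of the galectin family, 10 of 12 listed genes were measured, Lgals3 among them. None passed adjustment, 4 had positive and 6 negative differences, and their median of -0.01 lay beside -0.02 over all probe sets. Lgals1, the brightest galectin, had a difference of -0.02 ± 0.09 (SE), and Lgals8 one of -0.01 ± 0.09 (SE). Lgals7, a galectin of stratified epithelia, read 8.54, 8.25 and 7.53 in knockout hosts against 7.75, 7.81 and 7.56 in wild-type hosts. Its difference of 0.40 ± 0.21 (SE) came from arrays 1 and 2, since both arrays numbered 3 were low. Lgals9 read 8.44, 8.07 and 8.34 against 8.21, 7.70 and 8.01, a difference of 0.31 ± 0.29 (SE) with overlapping hosts. Lgals2 was the only galectin whose hosts did not overlap, beside 7.26% of all named genes. It read 5.46, 5.41 and 5.36 in knockout and 5.27, 5.10 and 5.24 in wild-type hosts (difference 0.21 ± 0.08, SE). In Tm1G3 tumours the Lgals2 difference was -0.05.

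The arrays differed far more within hosts than between them. Over all probe sets 9.38% of the variance of the 6 arrays lay between hosts. Groups this small leave part of the variance between them even when nothing differs. The first principal component took up 66.3%, with 0.816% of it between hosts, and the next 3 components held 13.2%, 9.38% and 7.10%, with 16.5%, 34.6% and 47.7% of each between hosts. Scores on the leading component were -7.20, -3.75 and 9.37 for knockout hosts and -1.14, -3.36 and 6.08 for wild-type hosts, which sets both arrays numbered 3 apart from the other 4. Pearson's r between those arrays over all probe sets was 0.997, whereas each of them correlated with the other arrays of its own host at 0.979 to 0.993. In 336 probe sets (27.0%) both arrays numbered 3 lay outside the other 4, above them in 154 and below them in 182.

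Genes at the high end of this component included chemokines and markers of myeloid cells and fibroblasts. Pf4, a platelet chemokine, read 7.95, 8.76 and 11.20 in knockout hosts and 8.88, 8.34 and 10.17 in wild-type hosts. Cxcl2, a neutrophil-attracting chemokine, read 3.92, 4.88 and 7.27 against 5.54, 4.33 and 6.14. Csf1r, the receptor for macrophage colony-stimulating factor, read 6.55, 7.03 and 8.55 against 7.01, 6.93 and 8.30. For each of these genes the array numbered 3 was the highest of its host, and the hosts overlapped. Dcn, the matrix proteoglycan decorin, behaved alike, with 7.47, 7.89 and 9.86 in knockout hosts and 8.09, 8.23 and 9.91 in wild-type hosts. Both arrays numbered 3 lay above the other 4 in 125 of all 909 named genes and below them in 145. They lay above in 7 of 9 measured macrophage markers, 5 of 7 fibroblast and matrix genes, 3 of 5 neutrophil markers and 13 of 29 chemokines. Other lists did so less often, with 1 of 7 endothelial, 2 of 10 lymphocyte and 2 of 8 dendritic cell markers. The mean log2 level of the macrophage markers was 5.58, 5.89 and 7.14 in knockout hosts and 6.06, 5.99 and 6.86 in wild-type hosts. That of the fibroblast and matrix genes was 6.61, 6.97 and 8.10 against 7.11, 7.10 and 7.94. At the low end of the component stood Lgals7, whose level was lowest on both arrays numbered 3. The part of these markers in any host difference was not tested.

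**Figure D1:**
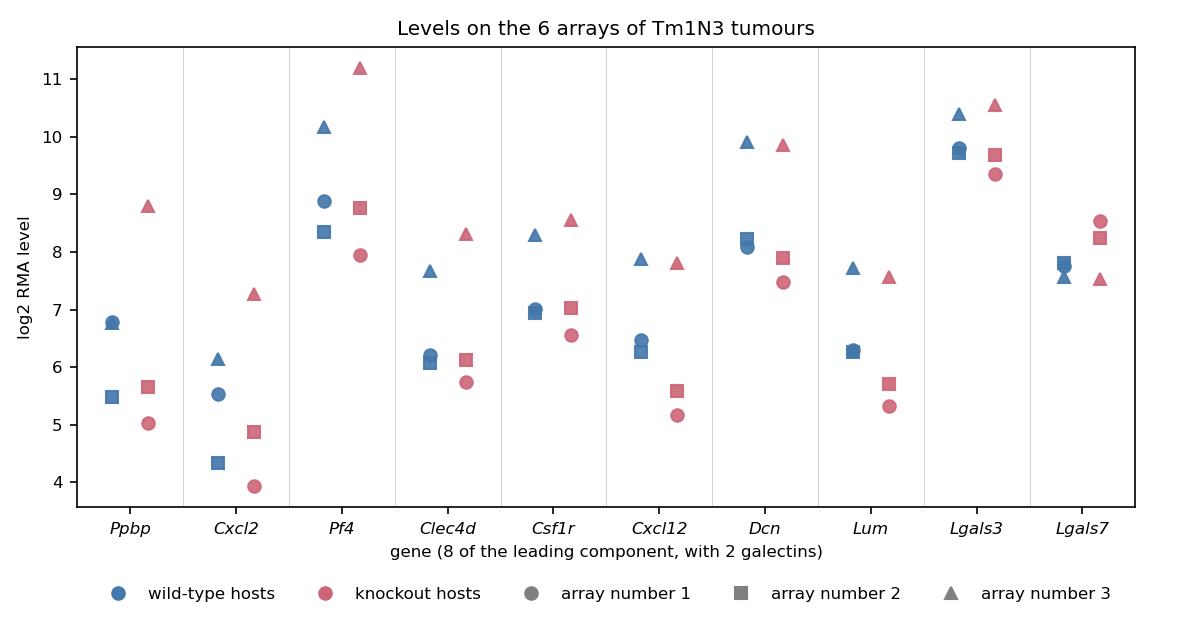
Log2 RMA levels (y axis) of 8 genes of the leading principal component and of Lgals3 and Lgals7 on each of the 6 arrays of Tm1N3 tumours (blue, wild-type hosts; red, knockout hosts; the marker shape gives the array number). Triangles, the arrays numbered 3, are the highest of their host for all of these genes except Lgals7, where they are the lowest, and Ppbp in wild-type hosts, where array 1 is level with them.

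No probe set passed adjustment between the hosts. With limma over the 1246 probe sets, 0 (0%) had an adjusted p under 0.05, and the smallest adjusted p was 0.963. At an unadjusted p under 0.05 stood 54 (4.33%), fewer than the 62.3 that this threshold passes when nothing differs, of which 19 (1.52%) were higher and 35 (2.81%) lower in knockout hosts. That count took no account of the array number. With the array number as a random block in limma the count was 93, above 62.3, and the smallest adjusted p was 0.206. With both arrays numbered 3 left out it was 61, of which 36 were higher and 25 lower. Adjusted calls were 0 in both. Leaving out 1 Tm1N3 array at a time gave between 26 (without knockout array 2) and 100 (without knockout array 3); it was 28 without wild-type array 3. The 3 arrays of one host lay entirely above or below those of the other in 95 probe sets (7.62%), 25 (2.01%) higher and 70 (5.62%) lower in knockout hosts. Separate animals are not stated for the replicates, so each p-value reflects the spread among these arrays, which may be technical.

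Differences were small as well as uncertain. The median size of a difference was 0.0662 on the log2 scale, 6 probe sets exceeded 0.5, and 0 exceeded 1. In 932 of 1246 probe sets the difference was smaller than the spread between arrays of the same host, whose median SD was 0.121. The 95% interval reached a median of 0.22 to either side of the difference, a factor of 1.16, and in 1194 probe sets (95.8%) the whole interval lay within a 2-fold change in either direction. In 1020 (81.9%) it lay within 0.5 log2 units of 0. The interval reached beyond a 2-fold change for the other 52, among them 6 of the 9 macrophage markers, 4 of the 7 fibroblast and matrix genes and 10 of the 29 chemokines. For those genes the arrays could not show a host difference of moderate size.

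**Figure D2:**
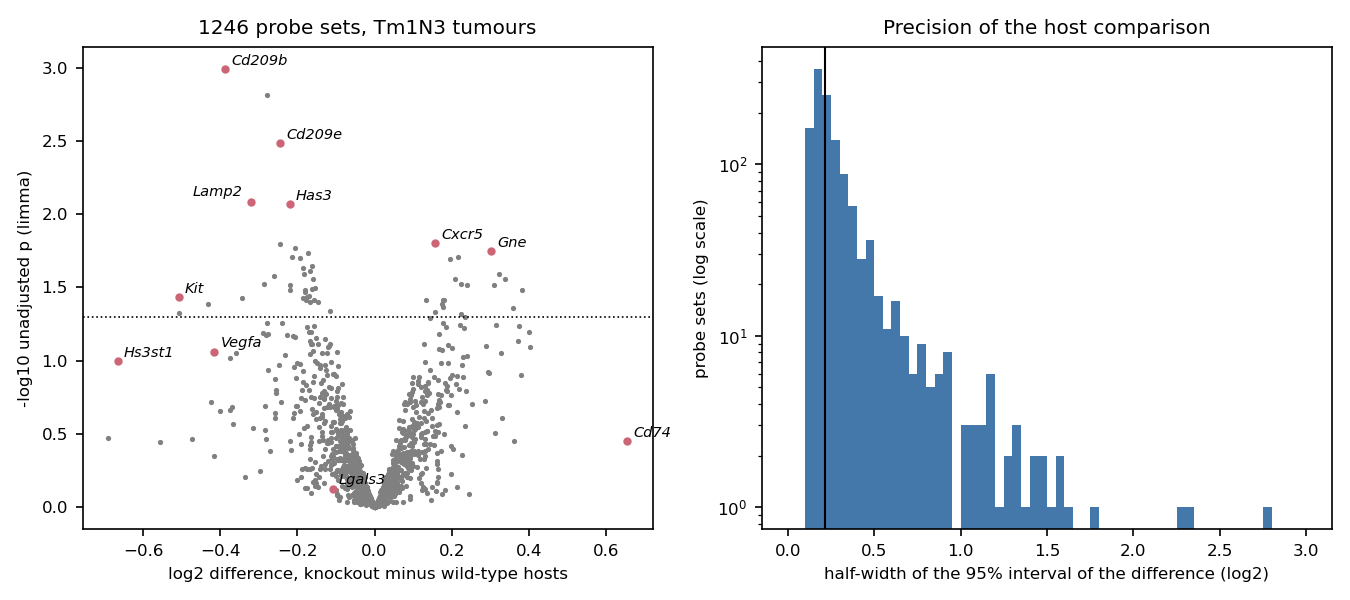
Left, the log2 difference between hosts (x axis, knockout minus wild type) against the -log10 unadjusted limma p (y axis) for 1246 probe sets in Tm1N3 tumours; the 54 points above the dotted line have an unadjusted p under 0.05, and none passed adjustment. Right, a histogram of how far each probe set's 95% interval reaches to either side (x axis, log2; y axis, probe sets on a log scale), with the median of 0.22 as a black line.

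C-type lectins of the Cd209 group had the smallest p among named genes. These receptors, the mouse relatives of human DC-SIGN, bind sugars on microbes and on host glycoproteins. Cd209b, also known as SIGN-R1 and best known from marginal-zone macrophages, read 4.68, 4.70 and 4.67 in knockout hosts and 4.93, 5.08 and 5.19 in wild-type hosts. All 3 knockout values lay below all 3 wild-type values, by 1.31-fold in the mean. The difference was -0.39 ± 0.09 (SE), with an unadjusted p of 0.00102 and an adjusted p of 0.963 in limma. Cd209e read 4.26, 4.36 and 4.36 against 4.55, 4.51 and 4.65, a difference of -0.24 ± 0.06 (SE) that also left the hosts apart. Mbl1, the secreted mannose-binding lectin A, read 4.19, 4.12 and 4.12 against 4.25, 4.33 and 4.38, a difference of -0.17 ± 0.06 (SE).

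These 3 lectins were dim, and the wider list held no call. Their mean levels over the 12 arrays ranked at the 36.4, 28.1 and 25.5 percentile of all probe sets for Cd209b, Cd209e and Mbl1. The Cd209b probe set carries a shared-sequence suffix, and the second Cd209b probe set had a difference of -0.09 ± 0.09 (SE). The differences of Cd209a, Cd209c and Cd209d were 0.08, 0.07 and -0.15, and these genes neighbour Cd209b and Cd209e on the chromosome. Over the 59 C-type lectins measured, 0 passed adjustment, 22 differences were positive and 37 negative, and the median was -0.04 beside -0.02 over all probe sets. The hosts did not overlap in 4 of the 59, all lower in knockout hosts, where 5.28% of named genes did so.

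The means of the same lectins were also lower in knockout hosts of Tm1G3 tumours. The Tm1G3 arrays gave no part of the Tm1N3 difference, but the fit that ranked the genes took its estimate of the spread from all 12 arrays, and results for both lines were known when the genes were chosen. In Tm1G3 tumours Cd209b read 4.56, 4.62 and 4.77 in knockout hosts and 4.90, 4.77 and 5.01 in wild-type hosts, the closest pair being level at the second decimal. Cd209e read 4.14, 4.15 and 4.26 against 4.35, 4.42 and 4.49, and Mbl1 read 4.11, 4.13 and 4.18 against 4.40, 4.25 and 4.24. The hosts did not overlap for any of the 3 genes (12.4% of all probe sets in Tm1G3 tumours, 5.78% lower in knockout hosts), with differences of -0.24 ± 0.09, -0.24 ± 0.06 and -0.16 ± 0.06 (SE). Their unadjusted p in limma was 0.018, 0.0040 and 0.026, and their adjusted p 0.752. Of the 12 genes with the smallest p in Tm1N3 tumours, 9 had the same sign in Tm1G3 tumours, beside 58.5% of all probe sets, and these 3 lectins were the ones with an unadjusted p under 0.05 there. In Tm1G3 tumours 6.18% of all probe sets had an unadjusted p under 0.05, 1.85% lower in knockout hosts, and 0% passed adjustment. Averaged over both lines, a comparison added after these values were seen, Cd209b and Cd209e differed by -0.32 ± 0.06 and -0.24 ± 0.05 (SE), each with an adjusted p of 0.226 in limma, where 0 of 1246 probe sets passed (0%). That adjusted p ran from 0.0593 with the array number as a random block to 0.794 without knockout array 2 of Tm1G3 tumours. Host and title number were confounded in both lines, and probe sets of low level leaned the same way in both: in the second of 4 equal classes of mean level the median difference was -0.03 in Tm1N3 and -0.04 in Tm1G3 tumours. The part of either in the lectin values was not tested.

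**Figure D3:**
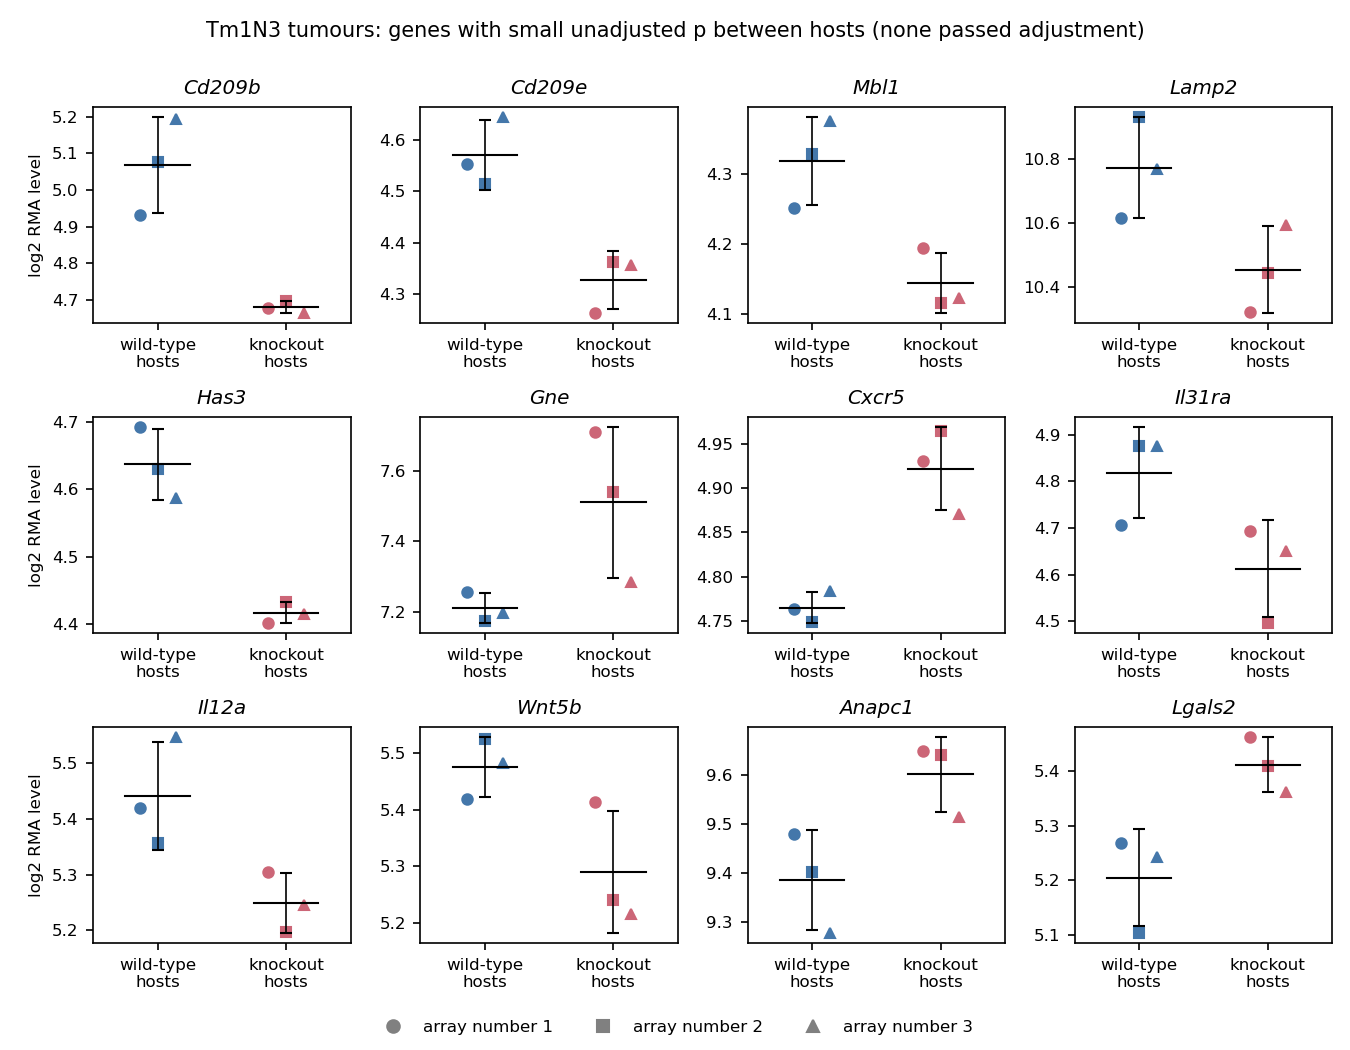
Log2 RMA levels (y axis, not starting at 0, own range per gene) of 12 named genes in Tm1N3 tumours of wild-type (blue) and knockout (red) hosts; lines are means, bars are SD over 3 arrays and the marker gives the array number. The hosts do not overlap for any of the 12, and none passed adjustment. These genes were picked for a small unadjusted limma p in the same arrays, which favours a lack of overlap, so it is no test of them. The hosts do not overlap in 7.26% of all named genes.

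Among carriers and modifiers of galectin ligands, Lamp2 had the smallest p. This lysosomal membrane glycoprotein read 10.32, 10.45 and 10.59 in knockout hosts and 10.62, 10.93 and 10.77 in wild-type hosts, a 1.25-fold lower mean (difference -0.32 ± 0.10, SE). The hosts did not overlap, although knockout array 3 and wild-type array 1 were nearly level. A second, dimmer Lamp2 probe set differed by -0.14 ± 0.13 (SE), and Lamp1 by -0.02 ± 0.10 (SE). Cd44, the hyaluronan receptor, read 11.15, 11.35 and 11.43 against 11.38, 11.64 and 11.53, with overlapping hosts and a difference of -0.21 ± 0.10 (SE). Over the 11 galectin ligands and receptors measured, 5 differences were positive and 6 negative, the median was -0.00 and none passed adjustment.

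Of the 28 lysosomal genes measured, which include glycan-degrading hydrolases, 22 had negative differences, beside 496 of all 909 named genes. Their median was -0.04, or -0.02 after median centring of the arrays, and 0 passed adjustment. In Tm1G3 tumours 21 of the same 28 had positive differences and the median was 0.05. Naglu, a hydrolase of heparan sulfate breakdown, read 9.93, 10.19 and 10.01 in knockout and 10.34, 10.21 and 10.08 in wild-type hosts, which overlapped (difference -0.17 ± 0.08, SE). Gla, alpha-galactosidase A, went the other way, at 6.63, 6.61 and 6.71 in knockout and 6.39, 6.52 and 6.50 in wild-type hosts (difference 0.18 ± 0.07, SE). Asah1, the lysosomal acid ceramidase, was not among these 28 genes and was named for its small interaction p. It read 10.29, 10.30 and 10.26 in knockout hosts and 10.38, 10.58 and 10.44 in wild-type hosts, without overlap (difference -0.19 ± 0.08, SE).

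Enzymes that build galectin-3 ligands held no adjusted call. Of 26 measured genes of N-glycan branching and lactosamine extension, 9 differences were positive and 17 negative, with a median of -0.01. Only 1 of the 26 lay lower in knockout hosts without overlap, where 5.28% of named genes did so. Mgat2, an N-acetylglucosaminyltransferase of the branching pathway, read 7.43, 7.45 and 7.44 against 7.44, 8.07 and 7.66, and its difference of -0.28 ± 0.14 (SE) rested largely on wild-type array 2. Of 19 sialyltransferases 10 were positive and 9 negative, and of 10 fucosyltransferases 5 were positive and 5 negative; neither held an adjusted call. Gne, the enzyme that starts sialic acid synthesis, read 7.71, 7.54 and 7.28 in knockout and 7.26, 7.17 and 7.20 in wild-type hosts. The hosts did not overlap, with a difference of 0.30 ± 0.11 (SE), and knockout array 3 was the closest to the wild-type values. St8sia2, a polysialyltransferase, differed by -0.18 ± 0.07 (SE) at a low level.

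Genes of hyaluronan and heparan sulfate held no adjusted call, and their differences ran both ways. Over 7 hyaluronan genes 3 differences were positive and 4 negative, with a median of -0.02. Has3, a hyaluronan synthase, read 4.40, 4.43 and 4.42 in knockout hosts and 4.69, 4.63 and 4.59 in wild-type hosts, a difference of -0.22 ± 0.07 (SE) with narrow spread in both hosts. In Tm1G3 tumours its difference was 0.00. Hpse, the heparan sulfate-cleaving enzyme heparanase, read 10.40, 10.42 and 10.13 against 10.74, 10.56 and 10.53 (difference -0.29 ± 0.14, SE), again without overlap. Chsy3, a chondroitin synthase, read 9.84, 9.83 and 9.80 against 9.96, 10.31 and 10.06 (difference -0.29 ± 0.11, SE). Hs3st1, a heparan sulfate 3-O-sulfotransferase, had one of the largest mean differences, -0.67 ± 0.37 (SE), from values of 5.29, 6.80 and 5.88 against 7.07, 6.99 and 5.91 that overlapped. Hs6st3, a heparan sulfate 6-O-sulfotransferase, was higher in knockout hosts without overlap, at 4.28, 4.25 and 4.06 against 4.02, 4.01 and 4.03 (difference 0.18 ± 0.08, SE). It was among the 25% of probe sets of lowest mean level, and knockout array 3 was nearly level with the wild-type arrays. Ndst4, a sulfotransferase of the same pathway picked after its values were seen, was also higher without overlap (0.10 ± 0.06, SE). Among the 35 heparan sulfate genes measured 17 differences were positive and 18 negative, with a median of -0.01. Without overlap, 2 of the 35 lay higher and 1 lower in knockout hosts, near the 7.26% of all named genes without overlap.

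No endothelial marker or angiogenic factor passed adjustment, and single genes ran both ways. The study's design text raises the angiogenic response, and Vegfa, the main endothelial growth factor, read 9.19, 9.29 and 9.48 in knockout hosts and 10.16, 9.54 and 9.51 in wild-type hosts. The hosts did not overlap, but knockout array 3 nearly reached wild-type arrays 2 and 3, and the difference was -0.42 ± 0.22 (SE), a 1.33-fold lower mean. It was -0.20 without wild-type array 1 and -0.53 without wild-type array 3. Emcn and Pecam1, endothelial surface proteins, read 8.79, 9.25 and 9.66 against 9.91, 9.19 and 9.73, and 7.79, 8.41 and 8.84 against 8.75, 8.33 and 8.60. Both were lowest on knockout array 1, and both overlapped between hosts. Esm1, a proteoglycan of endothelial cells, read 4.82, 5.15 and 5.42 against 5.89, 5.61 and 5.41, with a difference of -0.51 ± 0.23 (SE) and, in a brighter probe set, -0.37 ± 0.31 (SE). Sele, the endothelial adhesion molecule E-selectin, was the endothelial marker with an unadjusted p under 0.05 in limma (4.33% of all probe sets). Its mean was higher in knockout hosts, at 3.54, 3.46 and 3.27 against 3.21, 3.25 and 3.28 (difference 0.17 ± 0.07, SE), with array 3 overlapping. All of these values were dim, below the 4.22 that bounds the lowest 25% of mean levels. Of 7 endothelial markers 2 differences were positive and 5 negative, with a median of -0.14, while in Tm1G3 tumours 5 were positive with a median of 0.12. Of 18 angiogenic factors 8 were positive and 10 negative. Besides Vegfa, 2 had no overlap, both dim and higher in knockout hosts. Angpt1, the TIE2 ligand angiopoietin-1, differed by 0.09 ± 0.08 (SE). Angptl1, an angiopoietin-like protein picked after its values were seen, differed by 0.12 ± 0.12 (SE). The hosts did not overlap in 7.26% of all named genes, and 2.01% of all probe sets lay higher in knockout hosts without overlap.

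No immune cell marker passed adjustment. Of 9 macrophage markers 3 differences were positive and 6 negative, with a median of -0.15. The largest was Clec10a, a macrophage galactose-type lectin, at 6.60, 7.15 and 8.57 against 7.70, 7.33 and 8.55 (difference -0.42 ± 0.53, SE). Neutrophil markers had a median of -0.05 over 5 genes, dendritic cell markers 0.03 over 8 and lymphocyte markers -0.01 over 10. Cxcr5, a receptor for the B-cell chemokine CXCL13, was the 1 lymphocyte marker of 10 whose hosts did not overlap, beside 7.26% of all named genes. It read 4.93, 4.96 and 4.87 in knockout hosts and 4.76, 4.75 and 4.78 in wild-type hosts. Its difference was 0.16 ± 0.05 (SE) and did not pass adjustment, while in Tm1G3 tumours the difference was -0.01. Cd74, the invariant chain of class II antigen presentation, differed by 0.65 ± 0.68 (SE), one of the largest values, which came from 10.18 on knockout array 3 against 7.82 to 8.79 on the wild-type arrays.

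Chemokines, cytokines and growth factors likewise held no adjusted call. Of 29 chemokines 16 differences were positive and 13 negative, with a median of 0.01. Cxcl12, a chemokine of stromal cells, had the largest difference of any named gene, -0.69 ± 0.69 (SE), from 5.17, 5.58 and 7.81 against 6.48, 6.27 and 7.89. A brighter Cxcl12 probe set differed by -0.07 ± 0.31 (SE). Of 34 cytokines 13 were positive and 21 negative, with a median of -0.03. Il12a, the p35 subunit of interleukin-12, read 5.30, 5.20 and 5.25 against 5.42, 5.36 and 5.55, without overlap (difference -0.19 ± 0.07, SE), and its difference in Tm1G3 tumours was -0.15. Of 22 genes of the TGF-beta family 5 were positive and 17 negative, where 496 of all 909 named genes were negative. Their median was -0.04, or -0.02 after median centring of the arrays. Tgfb1 itself was on the positive side, at 7.98, 8.28 and 8.15 against 8.03, 7.73 and 7.54 (difference 0.37 ± 0.19, SE; 0.47 in Tm1G3 tumours). Among Wnt ligands, Wnt5a and Wnt5b differed by -0.28 ± 0.13 and -0.19 ± 0.07 (SE), and Wnt5a was among the 25% of probe sets of lowest mean level.

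**Figure D4:**
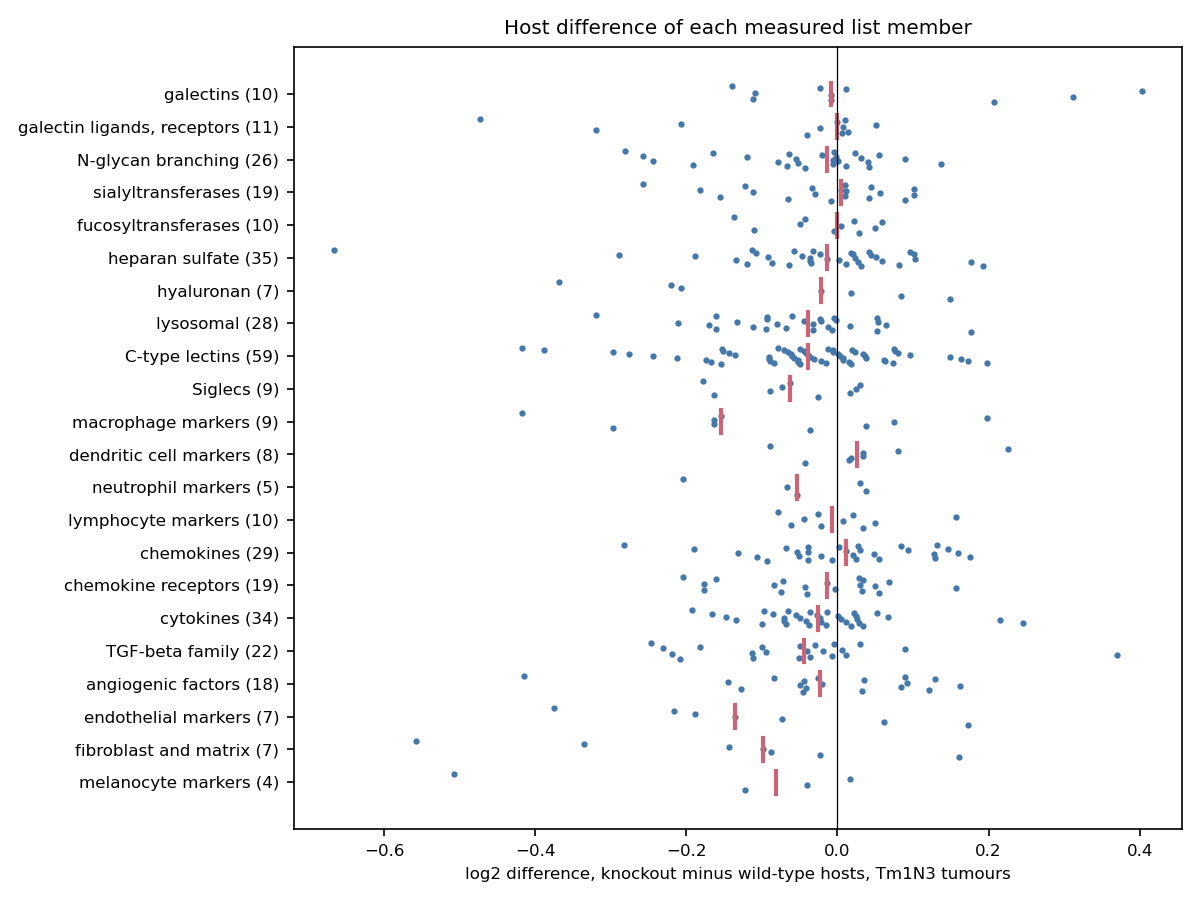
Host difference (x axis, log2, knockout minus wild type, Tm1N3 tumours) of each measured gene (blue point, brightest probe set) in 22 lists (y axis, number measured in brackets), with the median of each list as a red bar. The medians lie between -0.15 (macrophage markers) and 0.03 (dendritic cell markers), and no single gene passed adjustment.

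Tyr, Dct, Mlana and Pmel, which define pigment cells, were not among the matched probe sets, and Kit, Mcoln3, St8sia1 and Mcam were measured. Kit, a receptor tyrosine kinase that melanocytes and mast cells carry, read 4.91, 5.76 and 5.41 in knockout hosts and 5.91, 6.07 and 5.62 in wild-type hosts of Tm1N3 tumours. Knockout array 2 overlapped wild-type array 3, and the difference was -0.51 ± 0.21 (SE). In Tm1G3 tumours Kit read 7.22, 6.91 and 6.62 in knockout hosts and 6.20, 6.36 and 6.35 in wild-type hosts, a difference of 0.61 ± 0.21 (SE) without overlap. The host differences of the lines differed by -1.12 ± 0.30 (SE), and this interaction did not pass adjustment. Mcoln3, Mcam and St8sia1 differed by 0.02, -0.04 and -0.12 in Tm1N3 tumours and by 0.60, 0.13 and 0.08 in Tm1G3 tumours. The 4 genes had 1 positive and 3 negative differences in Tm1N3 tumours, with a median of -0.08, and 4 positive ones in Tm1G3 tumours, with a median of 0.37; 2 of the latter, Kit and Mcoln3, had an unadjusted p under 0.05, and none passed adjustment.

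No probe set passed the test of a host effect that differed between the lines. For the interaction 0 of 1246 (0%) passed adjustment in limma, with a smallest adjusted p of 0.996, and 35 (2.81%) had an unadjusted p under 0.05. The 4 named probe sets of smallest interaction p belonged to Kit, Asah1 and Igfbp4, the last with its first and second probe set below. Igfbp4, a binding protein for insulin-like growth factors, was read by 3 probe sets, whose host differences were 0.02, -0.05 and -0.14 in Tm1N3 tumours and 0.41, 0.34 and 0.26 in Tm1G3 tumours. For the first and second of these the sign in Tm1N3 tumours turned when single arrays were left out, so no direction is given there. Asah1 differed by -0.19 in Tm1N3 and 0.17 in Tm1G3 tumours, an interaction of -0.36 ± 0.11 (SE).

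**Figure D5:**
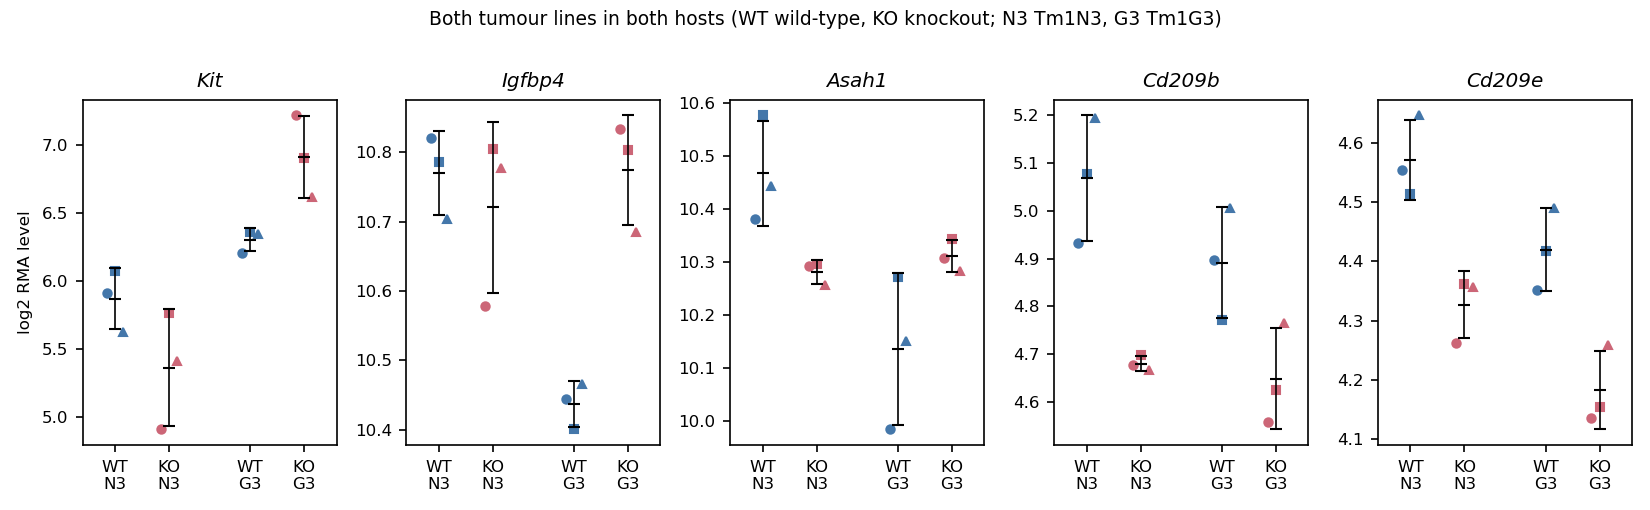
Log2 RMA levels (y axis, own range per gene) of Kit, Igfbp4 (the brighter of the probe sets the rule named), Asah1, Cd209b and Cd209e in wild-type (blue) and knockout (red) hosts of Tm1N3 (N3) and Tm1G3 (G3) tumours; bars are mean ± SD over 3 arrays. The mean of Kit is lower in knockout hosts of Tm1N3 tumours, where the hosts overlap, and higher in those of Tm1G3 tumours. Both Cd209 genes lie lower in knockout hosts of each line. No host difference and no interaction passed adjustment.

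Among named genes the hosts did not overlap in 66 of 909 (7.26%), of which only some are described. Tmsb10, an actin-binding thymosin, read 10.64, 10.72 and 10.69 in knockout hosts and 10.61, 10.23 and 10.07 in wild-type hosts (difference 0.38 ± 0.16, SE). Anapc1, a subunit of the anaphase-promoting complex, read 9.65, 9.64 and 9.51 against 9.48, 9.40 and 9.28 (difference 0.22 ± 0.08, SE). Sap30l and Klra17 were higher by 0.18 and 0.17, and Klra17 was among the 25% of probe sets of lowest mean level. Pigp, a gene of GPI-anchor synthesis, and Il31ra, a cytokine receptor, differed by -0.26 and -0.21. The direction of such counts depended on level and scaling. In the second of 4 equal classes of level, 33 probe sets lay lower and 5 higher in knockout hosts without overlap, against 10 and 4 in the highest class. Over all probe sets 547 differences were positive and 699 negative, and after median centring of the arrays 646 were positive and 600 negative. The 54 probe sets of small p, 37 of which lay below the median level, became 31 after centring, 19 higher and 12 lower, and 51 after a further quantile normalization, 23 higher and 28 lower.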

How the data were processed

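RNA was extracted with Trizol, labelled as biotinylated cRNA and hybridised to Affymetrix arrays, per the labels. The authors deposited log2 values of 1246 probe sets on 12 arrays, made with RMA per the submitters' processing notes; RMA shrinks probe-level noise and forces similar distributions, so a global shift between hosts would not be seen. Those values were used unchanged. Probe sets were named through the RefSeq accession that starts their name; 261 with UCSC names and 21 unmatched accessions stayed unnamed. Group means of all 4 groups were fitted with limma 3.58.1 in R 4.3.3, with Benjamini-Hochberg adjustment over all probe sets and a threshold of 0.05; the procedure was tested on simulated data. The number of arrays, 3 a group, limits the precision.

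Genes were named by rule: Lgals3, the 12 smallest p, the 8 largest differences without overlap on each side, up to 4 per list of 22 lists and defining markers, the 4 smallest interaction p, and the 6 largest differences. Others (the leading component, neighbours, further probe sets of a gene) were chosen after their values were seen. The lists and genes were chosen with earlier results of these data known. Some genes the rule takes in are not reported here. For a gene with several probe sets the lists used the brightest.

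Same-numbered arrays of the 2 hosts deviated together (r = 0.184, 0.566 and 0.752, each over 0.1), which by rule pairs them; what a number shares is not stated, and wild-type array 1 correlated better with knockout array 2 (0.367). Alternatives were a block on array number, other scalings, a filter, an intensity trend and leaving out arrays.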

Additional observations from a re-analysis of the deposited data

How the results depend on the processing

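No alternative gave an adjusted call between hosts of Tm1N3 tumours (20 alternatives), for the interaction or for the average of both lines (18 each), so the pairing changed no call. The count at an unadjusted p under 0.05 between hosts, 54, was 93 with array number as a random replicate block on the same 12 arrays, 27 on the 6 arrays alone and 47 on those 6 with it as a fixed replicate block, 31 after median centring and 26 to 100 with single arrays left out. For the interaction, 35 became 75 with the random block, 21 after centring, 22 without the lowest 25% of mean level, and 20 (without wild-type array 3 of Tm1G3) to 76 (without knockout array 3 of Tm1N3) with single arrays left out. The Lgals3 difference of -0.11 ranged from -0.45 to 0.15 with single arrays left out, and was positive without knockout array 1 (0.15) and without wild-type array 3 (0.10). Of 445 values of 32 other named probe sets under the alternatives, 440 kept their direction. Many of these were named because their hosts did not overlap, and leaving out a single array cannot turn the sign of such a difference. Block, filter and trend settings leave a difference as it was, so the count is no test of these genes. Over all 1246 probe sets, 563 kept their sign whichever single Tm1N3 array was left out. The 5 values that turned were all of Igfbp4. With single arrays left out one probe set ranged from -0.092 to 0.021, positive without knockout array 1, and the other from -0.036 to 0.092, negative without knockout array 2, knockout array 3 or wild-type array 3; the latter was -0.048 without both arrays numbered 3, an alternative chosen after seeing the data. The cause was not tested.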
